A study of Mus musculus with 5 samples.

Results

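The genes described here build and operate the transport system of the primary cilium and the transition zone, the gate at its base. They were found by gene symbol among the 55411 genes of the count tables: subunits of the intraflagellar transport (IFT) trains, their kinesin-2 and dynein-2 motors, the BBSome and its chaperonins, the membrane cargo proteins Arl3, Arl13b and Tulp3, and the MKS and NPHP modules of the transition zone. The symbols matched 56 genes, namely 55 genes for proteins and 1 antisense RNA, *Ift88os*, of which 51 had enough counts to be tested. Olfactory sensory neurons (OSNs) that transcribe *Olfr151* were compared between control and exposed mice, to ask how the transcriptome of this population changes after exposure to its ligand acetophenone. All animals were 7-week-old males of the line Olfr151(tm26Mom/tm26Mom), in which the receptor gene carries a reporter that labels the neurons with GFP. Single animals were kept for 5 h with 5% acetophenone in DMSO (exposed) or with DMSO without odorant (control), and live GFP-positive cells from 4 mice were sorted and combined into a pool. Control pools 1, 2 and 3 and exposed pools 1 and 3 were used. Exposed pool 2 was not analysed here. The sample descriptions give 200 cells per pool in one field and 400 in another. The methods of the study give 200 for this line. All mice were homozygous for the reporter allele, and sorting selected 1 receptor population. Transcripts of other cell types were also present, as given below, so the values describe the sorted pools. They do not extend to other receptor populations.

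An OSN carries many long sensory cilia on its dendritic knob, and all steps from odorant binding to the opening of the transduction channel take place there. Proteins move into a cilium on trains of IFT-B and IFT-A pulled outward by kinesin-2, and they return on trains pulled by dynein-2. The BBSome is a coat that couples membrane proteins to these trains, and the transition zone restricts what passes between the cilium and the cell. Loss of BBSome or IFT subunits is known to impair olfaction.

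The 5 libraries held 42780403 to 49527380 counts, and spike-in RNAs took 0.249% to 0.631% of them. On log2(CPM + 1) values of the genes tested, Pearson's r across genes was 0.906 to 0.943 between libraries of a condition and 0.831 to 0.913 between conditions. The summed level of 7 markers of mature OSNs, scaled for exon length (TPM), was 67212 to 73619 in the control pools and 54947 and 55524.5 in the exposed pools. That of 5 markers of immature OSNs was 542 to 616 TPM in the control pools and 703 and 886 TPM in the exposed pools. Both sums therefore separated the conditions, on a scale where the median gene tested stood at 87.6% of its control level. In counts scaled to library size, *Omp*, *Cnga2* and *Rtp1* had both exposed pools below the controls, and *Gap43*, *Gng8* and *Dpysl3* had both above them. The other mature markers, *Adcy3*, *Gnal*, *Gng13* and *Stoml3*, and the other immature markers, *Stmn2* and *Hdac9*, overlapped between conditions. *Rtp1* and *Cnga2* were called lower and *Gap43* was called higher in the exposed pools. The call of *Gap43* was lost with any of the 5 libraries left out (adjusted p from 0.103 to 0.495) and that of *Rtp1* without exposed pool 1 (0.128). For multiciliated respiratory cells, which also build cilia, the sum over 16 markers was 1158 to 1502 TPM in the control pools and 812 and 1051 TPM in the exposed pools. Of the 16, 11 had enough counts to be tested, with *Ccdc40* at 12617 to 24131 counts per pool, *Rsph1* at 5399 to 8691, *Rsph4a* at 5811 to 7894, *Tekt1* at 3136 to 4551, *Foxj1* at 1745 to 4444 and *Ccdc39* at 1764 to 2961 as the highest. *Dnah9* had 305 to 819 counts, *Hydin* 100 to 574, *Dnaic1* 138 to 663 and *Fam183b* 15 to 1884. The remaining 5 were at or near 0 in some or all pools: *Sntn* had 0 to 3 counts, *Dnaic2* 0 to 32, *Dnah5* 0 to 70, *Cdhr3* 0 to 77 and *Mcidas* 0 to 212. The sum over 5 sustentacular markers was 123 to 369 TPM in control pools and 158 and 335 TPM in exposed pools, and that over 7 myeloid markers was 30.6 to 259 TPM and 35.3 and 180 TPM, so that both overlapped between conditions. The 7 markers of basal cells together stayed at or under 4.12 TPM in every pool. Of the markers of these 4 other cell types, 17 had enough counts to be tested: *Foxj1*, *Tekt1*, *Dnah9*, *Dnaic1*, *Ccdc39*, *Ccdc40*, *Rsph1*, *Rsph4a*, *Hydin*, *Ccno* and *Fam183b* of multiciliated cells, *Cyp2g1*, *Cyp1a2*, *Cyp2a5* and *Sec14l3* of sustentacular cells, and *Ptprc* and *Lyz2* of myeloid cells. None was called by edgeR, and *Foxj1*, *Ccno* and *Ptprc* had an unadjusted p under 0.05 and were called by DESeq2's Wald test. *Ccno* had 767 to 888 counts in the control pools and 1572 and 1479 in the exposed pools, and *Ptprc* had 0, 54 and 1 counts and then 542 and 517. The part of these cell types in the results below was not tested.

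Ciliary transport genes were well expressed in the sorted pools. Their levels are given in TPM, which can be compared between genes. The median over the 51 tested members was 73.5 TPM (mean of the 5 pools), against 24.0 TPM over all genes tested. *Ift43*, an IFT-A subunit, was highest with 497 ± 57.6 TPM in control pools (SD, n = 3), and genes from different machines followed with overlapping control values. The kinesin-2 subunit *Kif3a* had 215 ± 19.8 TPM, the dynein-2 intermediate chain *Wdr34* had 227 ± 28.9 TPM, the GTPase *Arl3* had 212 ± 20.6 TPM, the IFT-B subunit *Ttc30b* had 205 ± 28.0 TPM and the BBSome subunit *Ttc8* had 187 ± 24.4 TPM. Spread between control pools was modest, with a median coefficient of variation of 16.9% over the tested members and 22.5% over all genes tested.

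**Figure D1:**
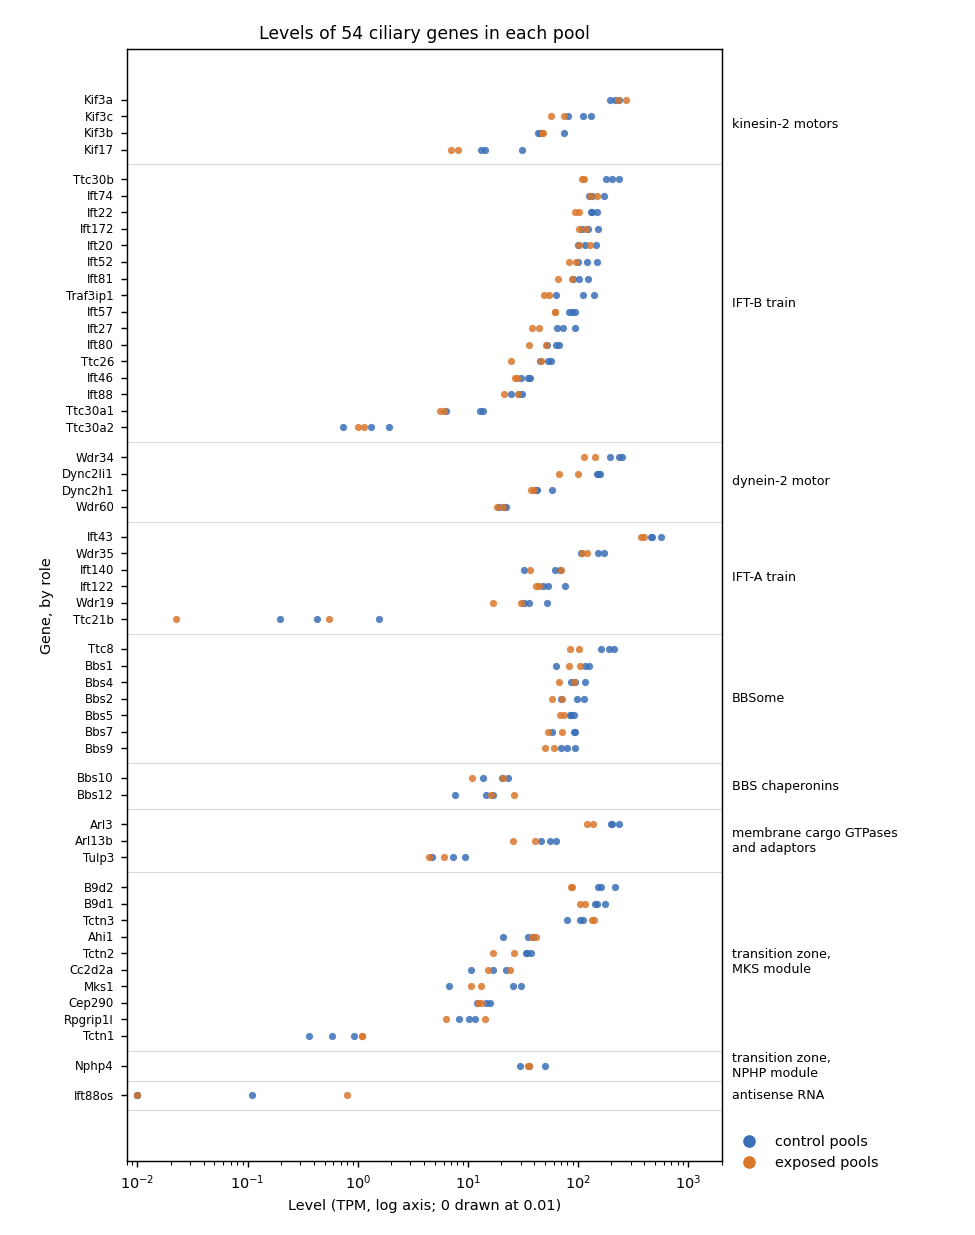
TPM of 54 of the 56 genes on a log axis, 1 point per pool, with genes grouped by role and ordered by mean level. *Ift43* stands highest in every pool, and *Ttc21b*, *Tctn1* and *Ttc30a2* lie far below the other members of their groups, and the antisense RNA *Ift88os* has the lowest mean of the genes drawn.

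Within a machine, levels differed widely. The BBSome was fairly even. Its 7 subunits among the members had mean levels from 71.1 TPM for *Bbs9* to 149 TPM for *Ttc8*, and the other 5 lay between these. *Bbip1*, a further BBSome subunit that the symbols did not match, had 70.2 TPM. The chaperonins *Bbs10* and *Bbs12*, which act in BBSome assembly, were far lower, with 17.7 and 16.2 TPM. In the IFT-B train, means ran from 167 TPM for *Ttc30b* down to 8.91 TPM for its paralog *Ttc30a1* and 1.22 TPM for *Ttc30a2*. The 3 paralogs encode the same train position and lie side by side on the minus strand of chromosome 2 (GRCm38), *Ttc30b* at 75935849-75938585, *Ttc30a2* at 75975740-75978170 and *Ttc30a1* at 75978247-75981967. Of all stretches of 50 bases in their transcripts, the length of the reads, 34.8% in *Ttc30b*, 31.8% in *Ttc30a1* and 53.9% in *Ttc30a2* also occurred in another gene, mostly in a paralog. Reads from those stretches were not counted, so all 3 levels are uncertain. Among motors, the dynein-2 intermediate chain *Wdr60* had 20.3 TPM beside 187 TPM for *Wdr34*, and the kinesin *Kif17* had 14.7 TPM beside 229 TPM for *Kif3a*. In the transition zone, *B9d2* with 141 TPM and *B9d1* with 138 TPM were highest in the MKS module. *Tulp3*, an adaptor that carries receptors to cilia, was lowest of the tested members, with 6.38 TPM.

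After exposure, most ciliary transport genes had lower values, but few passed the test. *Ttc8* and *Ttc30b* were called lower and no member was called higher, where a call required a Benjamini-Hochberg adjusted p under 0.1 over all genes and an absolute log2 fold change above 0.5 in edgeR's quasi-likelihood test. Over all 10055 genes tested, 1.85% were called lower and 3.42% higher, against 3.92% of the members called lower, which is 2 genes. With 2 members called, this comparison does not decide whether the members differ from other genes in their number of calls. At an unadjusted p under 0.05, 11 of the 51 tested members were lower and 2 higher, where 9.92% and 9.22% of all genes were. This background also holds for the counts by role below. DESeq2's Wald test called 7 members lower and 1 higher, and 7.65% and 7.21% of all genes. In sorted bulk samples, fewer cells that express a gene and less of its RNA per cell cannot be told apart.

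The direction of the values was less even than in other genes. The log2 fold change was negative for 38 of the 51 members (74.5%), against 52.1% of all genes tested, and its median was -0.29 against -0.03. Both exposed pools lay below all 3 control pools in 20 members (39.2%), which occurred in 19.6% of all genes. Both lay above them in 3 members (5.88%), which occurred in 20.3% of all genes. The median of the members was negative, and below that of all genes, under each alternative scaling, filter and left-out library. These shares and medians are descriptions without a test over genes from the same pools. On the TPM scale the members summed to 4566, 5126 and 4734 TPM in the control pools and to 3398 and 3736 TPM in the exposed pools, 74.2% of the control mean. The median gene tested stood at 87.6% of its control level on that scale and the median member at 73.0%. In CPM on the library sizes of the test, the exposed sum was 85.7% of control.

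**Figure D2:**
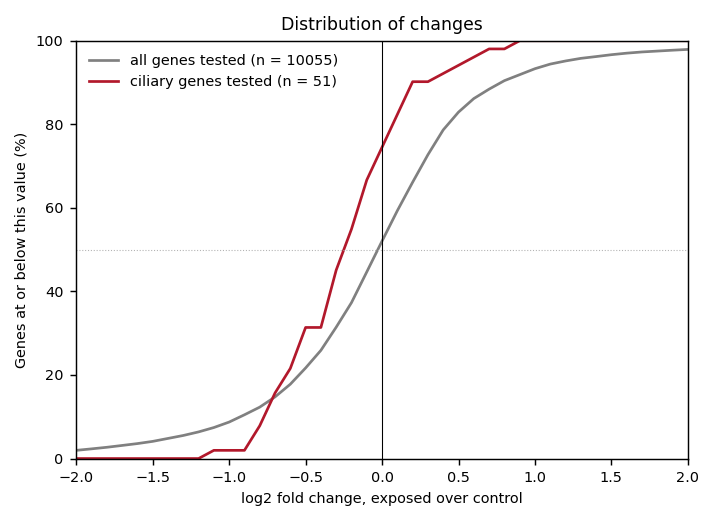
Share of genes (percent, vertical axis) whose log2 fold change, exposed over control, lies at or below the value on the horizontal axis, for the 51 tested ciliary genes and all 10055 genes tested. The line of the ciliary genes lies to the left of the other around 0, where 74.5% of them are negative against 52.1% of all genes, and it lacks the long tails on both sides.

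**Figure D3:**
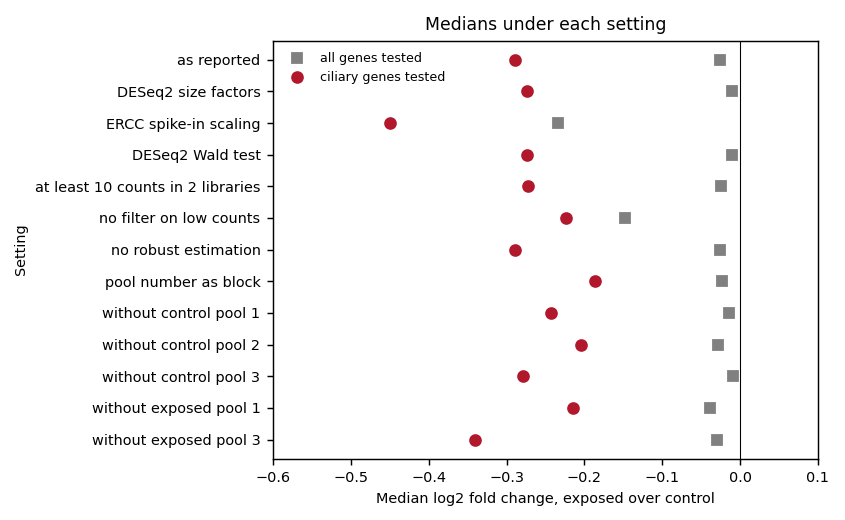
Median log2 fold change, exposed over control, of the ciliary genes (circles) and of all genes tested (squares) under the reported setting and each alternative. The median of the ciliary genes lies between -0.45 and -0.19 and left of that of all genes in each setting, and scaling to the spike-ins moves both medians down, that of all genes to -0.23.

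None of the 4 outward motor subunits among the members was called by edgeR or DESeq2. At an unadjusted p under 0.05 there were 2 lower and 1 higher. *Kif17*, a homodimeric kinesin-2 linked to the delivery of cyclic nucleotide-gated channels, had the lowest fold change of the tested members. Its scaled counts (CPM, counts relative to the TMM-scaled library size) were 20.7, 39.2 and 17.4 for control pools 1, 2 and 3, against 11.0 and 11.8 for exposed pools 1 and 3, the order used throughout. The groups did not overlap, but control pool 2 stood far above the other control pools, and the log2 fold change of -1.18 (SE 0.44, adjusted p = 0.218) did not pass the test. *Kif3a* pairs with Kif3b or Kif3c in the heterotrimeric motor. It had 221, 213 and 246 CPM in control pools, against 277 and 309 CPM in exposed pools. Its exposed pools were both above the controls, with a log2 fold change of 0.37 (SE 0.14, adjusted p = 0.229). The 2 partner subunits differed in value: *Kif3c* had 188, 230 and 280 CPM in control pools, against 143 and 175 CPM in exposed pools, a log2 fold change of -0.55 (SE 0.21, adjusted p = 0.228), while the groups overlapped for *Kif3b*. Of the *Kif3c* exons, 40.7% overlap other annotated genes, 1110002L01Rik among them, and reads there were not counted.

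In the IFT-B train 13 of the 15 tested members had a negative fold change, with a median of -0.32, and 1 was called. That subunit was *Ttc30b* (ENSMUSG00000075273), the tetratricopeptide protein also called IFT70B, with 153, 178 and 160 CPM in control pools, against 104 and 94.9 CPM in exposed pools. Its exposed pools were well below the controls. The log2 fold change was -0.72 (SE 0.17, adjusted p = 0.0787). The call rested on nearly every pool: the adjusted p was 0.203 without control pool 2, 0.136 without control pool 3, 0.327 without exposed pool 1 and 0.248 without exposed pool 3. The paralog *Ttc30a1* had 15.1, 14.3 and 6.86 CPM in control pools, against 7.58 and 6.57 CPM in exposed pools. Control pool 3 fell among the exposed pools there, and the log2 fold change of -0.77 had an SE of 0.49.

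*Traf3ip1*, which encodes IFT54, had 72.5, 144 and 120 CPM in control pools, against 61.3 and 64.4 CPM in exposed pools. The groups did not overlap, but control pool 1 was close to the exposed pools, and the log2 fold change was -0.83 (SE 0.30, adjusted p = 0.207). Without control pool 1 it was -1.07 and passed the test (adjusted p = 0.0524), as it did in DESeq2's Wald test with all pools (adjusted p = 0.0910). *Ift27*, a small GTPase of the train that acts in the exit of the BBSome from cilia, had 84.1, 58.0 and 53.4 CPM in control pools, against 43.2 and 34.8 CPM in exposed pools, a log2 fold change of -0.74 (SE 0.29, adjusted p = 0.228). Other subunits of the train stood nearer to 0. *Ift57*, *Ift22* and *Ift52* had exposed pools just below the controls, with 88.4 ± 5.44, 137 ± 8.58 and 123 ± 23.8 TPM in control pools, and *Ift172*, *Ift88*, *Ift20*, *Ift74*, *Ift80*, *Ift81*, *Ift46* and *Ttc26* overlapped between the groups.

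Of the inward motor subunits among the members none was called by edgeR, and 2 had an unadjusted p under 0.05. The light intermediate chain *Dync2li1* and the intermediate chain *Wdr34* had lower values, while the heavy chain *Dync2h1* and the second intermediate chain *Wdr60* overlapped. *Dync2li1* had 93.3, 78.0 and 80.7 CPM in control pools, against 42.5 and 59.2 CPM in exposed pools, a log2 fold change of -0.72 (SE 0.24, adjusted p = 0.171). *Wdr34* had 175, 164 and 133 CPM in control pools, against 114 and 85.3 CPM in exposed pools, a log2 fold change of -0.66 (SE 0.21, adjusted p = 0.166). For both genes the exposed pools were below every control pool. DESeq2's Wald test called both lower, with an adjusted p of 0.05002 for *Dync2li1* and 0.0533 for *Wdr34*. *Wdr60* had 48.8, 47.9 and 52.0 CPM in control pools, against 50.2 and 53.7 CPM in exposed pools.

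None of the 5 tested subunits of the IFT-A train was called, and none had an unadjusted p under 0.05 or was called by DESeq2. *Ift43*, the most abundant member, had 291, 210 and 226 CPM in control pools, against 208 and 211 CPM in exposed pools, a log2 fold change of -0.21 (SE 0.18). *Wdr19*, which encodes IFT144, had 114, 112 and 172 CPM in control pools, against 64.5 and 110 CPM in exposed pools. Exposed pool 3 was close to 2 of the control pools, and the log2 fold change was -0.61 (SE 0.31, adjusted p = 0.338). *Ift122* had both exposed pools below the controls, and *Wdr35* and *Ift140* overlapped.

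In the BBSome, 6 of the 7 subunits among the members had a negative fold change with a median of -0.20, and *Ttc8* was called. *Bbip1*, outside the member list, had a log2 fold change of 0.14 (SE 0.19), and its groups overlapped. *Ttc8* (ENSMUSG00000021013, chromosome 12, 98920574-98983238, plus strand, GRCm38) encodes the subunit BBS8. Its deposited counts were 8230, 10782 and 9593 for the controls, against 4590 and 5051 for the exposed pools, which is 191, 220 and 209 CPM against 108 and 122 CPM. The exposed pools stood at 0.556 times the control mean, with 115 ± 9.87 CPM (SD, n = 2) against 207 ± 14.8 CPM (SD, n = 3), and the gap between the groups was larger than the range within either. The log2 fold change was -0.85 (SE 0.16, adjusted p = 0.0444). The call was lost without control pool 2 (adjusted p = 0.140), without exposed pool 1 (0.319) and without exposed pool 3 (0.135), while the fold change stayed between -0.94 and -0.76. *Bbs9* had 138, 164 and 145 CPM in control pools, against 106 and 121 CPM in exposed pools, a log2 fold change of -0.39 (SE 0.17, adjusted p = 0.275), also without overlap. The remaining subunits, *Bbs1*, *Bbs2*, *Bbs4*, *Bbs5* and *Bbs7*, overlapped between groups. *Bbs12* had 12.9, 5.19 and 10.4 CPM in control pools, against 21.5 and 12.5 CPM in exposed pools, so that its groups overlapped. Its log2 fold change of 0.84 (SE 0.50) was the highest of the tested members without passing the test. *Bbs10*, the other chaperonin among the members, had a log2 fold change of -0.09 (SE 0.46).

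The membrane cargo proteins all had negative values and none was called by edgeR, while DESeq2's Wald test called *Arl3* lower (adjusted p = 0.0610), the 1 gene of them with an unadjusted p under 0.05 in edgeR. *Arl3*, a GTPase that releases lipid-modified proteins from their carriers inside the cilium, had 159, 137 and 171 CPM in control pools, against 114 and 96.3 CPM in exposed pools, a log2 fold change of -0.56 (SE 0.18, adjusted p = 0.171). Its activator *Arl13b* had 74.1, 88.7 and 82.7 CPM in control pools, against 44.5 and 66.1 CPM in exposed pools, a log2 fold change of -0.57 (SE 0.24, adjusted p = 0.271). Both separated the groups in these pools. *Tulp3* overlapped, with a log2 fold change of -0.29 (SE 0.41).

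**Figure D4:**
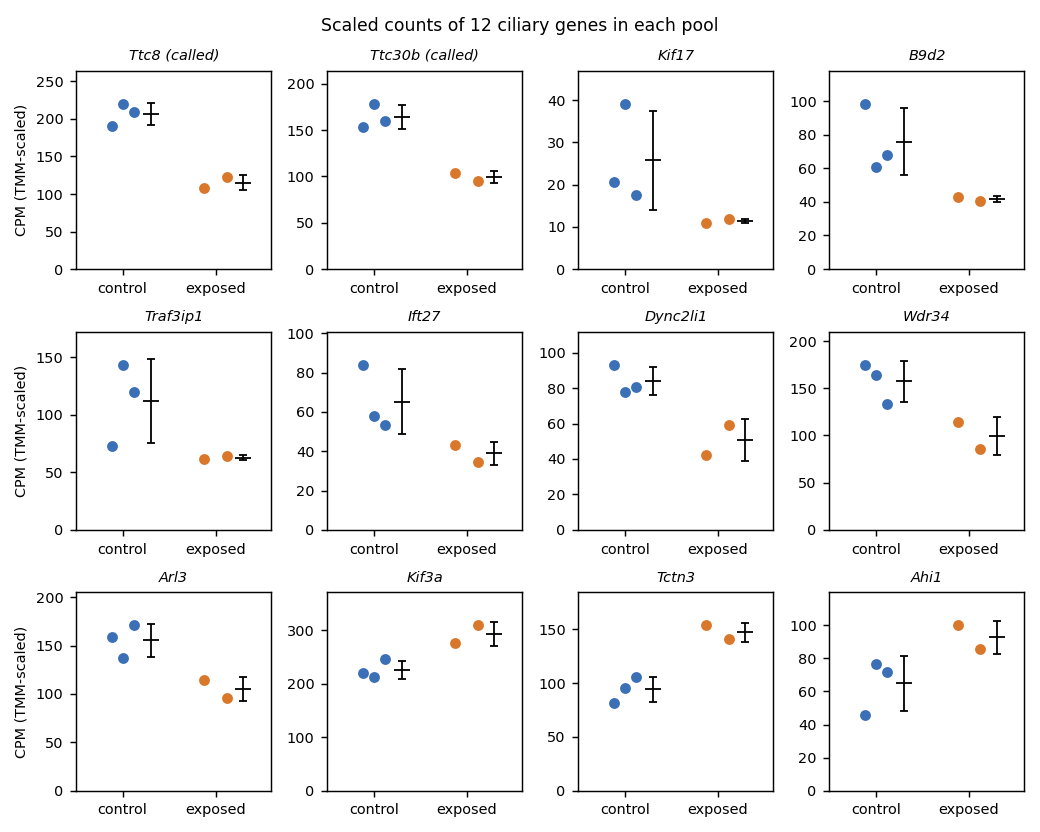
CPM on TMM-scaled libraries for 12 ciliary genes, 1 point per pool, with the mean and SD of each condition (n = 3 control, n = 2 exposed) beside the points and axes that start at 0. *Ttc8* and *Ttc30b* were called lower, while the other genes did not pass the test. *Kif3a*, *Tctn3* and *Ahi1* have both exposed pools above every control pool, and the other 9 have them below.

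The MKS module of the transition zone had values in both directions. Of its 9 tested genes, 5 had a positive and 4 a negative fold change. None was called by edgeR, where 2 lower and 1 higher had an unadjusted p under 0.05. *B9d2*, a B9 domain protein of the module, had 98.6, 61.1 and 68.2 CPM in control pools, against 42.9 and 40.7 CPM in exposed pools, a log2 fold change of -0.86 (SE 0.27, adjusted p = 0.165), and was called lower by DESeq2's Wald test (adjusted p = 0.0420). Its partner *B9d1* also had both exposed pools below the controls, while *Mks1*, the third B9 protein, varied from 8.61 to 35.9 CPM among the control pools alone and overlapped (log2 fold change -0.62, SE 0.59). The tectonic proteins, which link the module to the ciliary membrane, had opposite values. *Tctn3* had 82.0, 95.5 and 105 CPM in control pools, against 154 and 141 CPM in exposed pools. Its exposed pools were both above every control pool, with a log2 fold change of 0.64 (SE 0.18, adjusted p = 0.130), and DESeq2's Wald test called it higher (adjusted p = 0.0170). *Tctn2* had 87.7, 79.1 and 89.6 CPM in control pools, against 47.2 and 68.9 CPM in exposed pools, a log2 fold change of -0.56 (SE 0.23, adjusted p = 0.261). *Ahi1*, which encodes jouberin, had 45.8, 76.8 and 72.0 CPM in control pools, against 99.9 and 85.5 CPM in exposed pools, a log2 fold change of 0.51 (SE 0.27, adjusted p = 0.347). The scaffolds *Cep290*, *Rpgrip1l* and *Cc2d2a* overlapped. *Nphp4*, of the NPHP module, also overlapped.

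**Figure D5:**
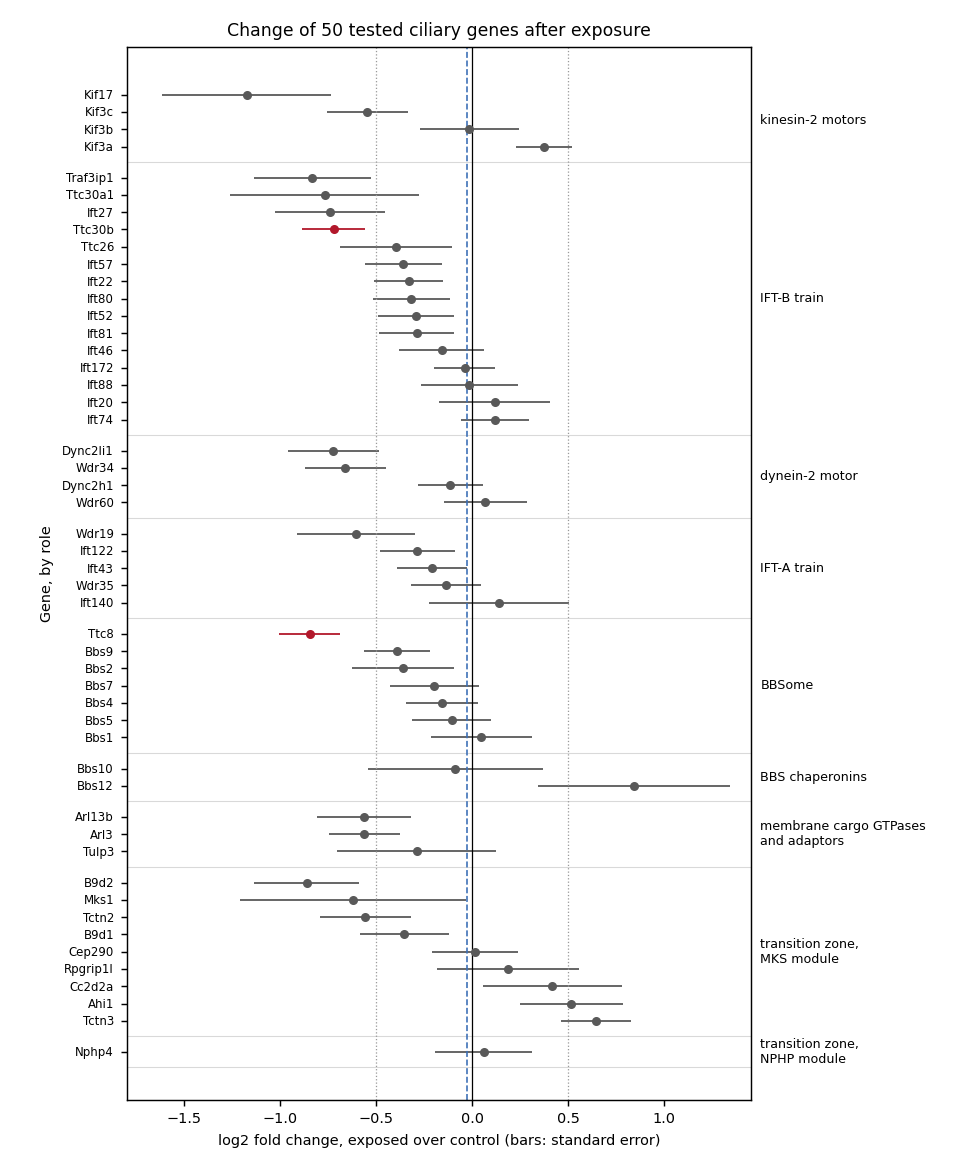
Log2 fold change, exposed over control, of 50 of the 51 tested ciliary genes with standard errors, grouped by role. The dashed line marks the median of all genes tested (-0.03), dotted lines mark the call threshold of 0.5 in each direction, and *Ttc8* and *Ttc30b* in red are the 2 called genes. Negative values prevail in the trains, the BBSome and the cargo proteins, and the MKS module spreads to both sides.

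Another 26 tested members, not named here with a fold change, had values from -0.40 to 0.42, 18 of them negative, and the lowest adjusted p among them was 0.366. The 5 members that were not tested had few reads, and 4 of them are described. The counts in control pools 1, 2 and 3 and exposed pools 1 and 3 were 40, 66, 102, 131 and 120 for *Tctn1*, the third tectonic gene. Its exposed pools were higher, but 23.9% of its 50-base stretches are shared, mostly with the overlapping gene *Hvcn1*. The counts were 53, 25, 193, 3 and 67 for the IFT-A subunit *Ttc21b* and 24, 63, 43, 35 and 37 for *Ttc30a2*, without separation of the groups. *Ift88os* had 3, 0, 0, 23 and 0 counts, and reads that overlap *Ift88* on the other strand were not counted for either gene.

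Other genes of the same machines had a similar share of negative values and 3 calls. Of 32 further transport and gate genes, 31 were tested, 23 had negative fold changes, and the median was -0.24, with 2 called lower and 1 higher. *Tmem231*, a membrane protein of the MKS module, was called lower, with 186, 224 and 186 CPM in control pools, against 105 and 118 CPM in exposed pools (log2 fold change -0.83, SE 0.17, adjusted p = 0.0576). The call was lost without control pool 2 (adjusted p = 0.158), exposed pool 1 (0.353) or exposed pool 3 (0.162). Genes around *Arl3* were called in opposite directions. *Unc119* and *Pde6d*, from the same list, had both exposed pools below every control pool and were not called. Their log2 fold changes were -0.79 (SE 0.39, adjusted p = 0.330) and -0.55 (SE 0.17, adjusted p = 0.152). *Rp2*, the GTPase activating protein of Arl3, had 886, 1159 and 1043 CPM in control pools, against 446 and 449 CPM in exposed pools, and fell by 1.20 on the log2 scale (SE 0.15, adjusted p = 0.0119). *Unc119b* is a carrier whose lipid-modified cargo Arl3 releases. It had 160, 142 and 141 CPM in control pools, against 339 and 292 CPM in exposed pools, a rise of 1.09 (SE 0.15, adjusted p = 0.0159). In edgeR with the pool number as a block, *Rp2* (adjusted p = 0.142) and *Unc119b* (0.159) did not pass, nor did they with spike-in scaling. Without exposed pool 1 neither passed, with adjusted p of 0.142 for *Rp2* and 0.175 for *Unc119b*.

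Of 6 transduction proteins that the transport system brings to olfactory cilia, the 3 subunits of the cyclic nucleotide-gated channel were called lower. *Cnga2* had 5500, 5972 and 5201 CPM in control pools, against 3351 and 2897 CPM in exposed pools (log2 fold change -0.83, SE 0.12, adjusted p = 0.0193). *Cnga4* and *Cngb1* had log2 fold changes of -0.53 (adjusted p = 0.0731) and -0.91 (adjusted p = 0.0484). The channel calls were also sensitive to the pools: without exposed pool 1 the adjusted p was 0.114, 0.383 and 0.331 for *Cnga2*, *Cnga4* and *Cngb1*, and without exposed pool 3 it was 0.120, 0.213 and 0.119. Without control pool 2 it was 0.173 for *Cnga4* and 0.143 for *Cngb1*, and without control pool 3 it was 0.108 for *Cnga4*. *Adcy3*, *Gnal* and *Ano2* were not called.

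Of 7 transcription factors, 6 of the RFX family, some of which drive ciliary genes, and *Foxj1*, none was called by edgeR, and 2 had an unadjusted p under 0.05. *Foxj1* had 67.0, 84.1 and 97.0 CPM in control pools, against 41.1 and 45.7 CPM in exposed pools, a log2 fold change of -0.93 (SE 0.24, adjusted p = 0.109). It passed in DESeq2's Wald test (adjusted p = 0.00731) and in edgeR without control pool 1 (0.0693). *Rfx2* had 60.8, 56.4 and 62.5 CPM in control pools, against 18.6 and 38.1 CPM in exposed pools, a log2 fold change of -1.08 (SE 0.34, adjusted p = 0.166). It passed in DESeq2's Wald test (adjusted p = 0.0392) and in edgeR without exposed pool 3 (0.0977). *Rfx3* had 165, 235 and 226 CPM in control pools, against 110 and 171 CPM in exposed pools, and its groups overlapped.

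RFX factors bind the X-box, a pair of inverted short sites, in promoters of ciliary genes. Promoter windows of 300 bases, 250 before and 50 from the gene start, were taken from RefSeq (GRCm38.p6) for the 48 members that had one. The short site GTTGCC, on either strand, was present in 25 of them (52.1%), against 14.1% of all 27025 genes with a window. Among tested genes it was present in 23 of 45 members (51.1%), against 15.9% of the 7887 genes with a window. A pair of the looser sites GTNNCC and GGNNAC, 0 to 3 bases apart, was present in 14 member promoters (29.2%), against 4.38% of those of all 27025 genes. Among tested genes the pair was present in 12 of 45 members (26.7%), against 6.45% of the 7887 genes. The pair reads the same on both strands, and some pairs contain a site of the first kind. The following windows of 30 bases are shown, with the pair in capitals, because they cover the IFT-B, IFT-A, BBSome and transition zone groups and include genes with higher as well as lower values. Each is given 5′ to 3′ on the strand of its gene.
*Ift57* (chr16:49699199-49699228, plus strand): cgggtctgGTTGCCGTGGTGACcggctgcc
*Ttc30a2* (chr2:75978182-75978211, minus strand): gttggcttGTTGCCATGGGAACaagcacac
*Wdr19* (chr5:65199654-65199683, plus strand): tttgcacgGTCTCCTGGGTGACgagaacgc
*Bbs1* (chr19:4906605-4906634, minus strand): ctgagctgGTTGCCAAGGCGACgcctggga
*Tctn2* (chr5:124598679-124598708, plus strand): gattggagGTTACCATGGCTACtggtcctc
*Tctn3* (chr19:40612350-40612379, minus strand): tcccagcgGTTGCCAGGTAACgggaaccac
*Ahi1* (chr10:20952560-20952589, plus strand): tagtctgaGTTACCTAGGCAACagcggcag

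The paired sites are 1 base apart in *Tctn3* and 2 bases apart in the other 6. Members with a pair had values of either sign. The 12 tested members with a pair had log2 fold changes from -0.62 to 0.64 with a median of -0.27, and the 33 with a window but no pair had a median of -0.16 and a range from -1.18 to 0.84. *Ttc8* held neither motif in its window, and no window was used for *Ttc30b*. A match to these letters is not evidence of binding, and no binding was measured.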

How the data were processed

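Polyadenylated RNA of sorted GFP-positive OSNs was amplified with SMARTer chemistry and read in single 50-base reads. Reads were mapped by the authors with STAR 2.7.0a to GRCm38 and counted them on exons with featureCounts 1.6.3, ignoring strand and leaving out multi-mapping reads and those shared by genes. The deposited values are these raw counts. TPM were computed here from counts and exon lengths.

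A gene was tested if all libraries of the control or of the exposed condition reached 140 counts, the nearest minimum below the main mode in the distribution of log2 counts. Counts were compared with edgeR 4.0.16 (R 4.3.3; TMM, robust quasi-likelihood fit, condition as only factor, 5 libraries, Benjamini-Hochberg adjustment). The procedure was tested on simulated data. DESeq2 1.42.0, other scalings and filters, a pool block and each library left out were alternatives. Symbols came from GENCODE M21 for 55144 genes. Reads carry no molecular identifiers. The p-values rest on the spread between 3 and 2 pools.

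The members and lists were chosen with earlier results of these data known. Named genes are the called members, up to 5 uncalled members per direction above the fold threshold without overlap, the highest and lowest of each role, members not tested, and called genes of the other lists. *Ttc30a1*, *Wdr19*, *Kif3c*, *Arl13b*, *Tctn2*, *Mks1*, *Foxj1*, *Rfx2*, *Rfx3*, *Unc119*, *Pde6d*, *Bbip1*, the uncalled OSN markers and members named without a fold change were added after their values were seen. Of the 56 members, 2 are counted in the totals but not reported here.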

Additional observations from a re-analysis of the deposited data

How the results depend on the processing

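All genes gave 344 calls higher and 186 lower, and the members 0 and 2. In the same order these became 94, 49, 0 and 0 with spike-in scaling, 725, 769, 1 and 7 with DESeq2's Wald test, 162, 74, 0 and 0 with at least 10 counts in 2 libraries, and 190, 90, 0 and 1 at an adjusted p under 0.05. Without any filter 1 member was called lower. With the pool number as a block there were 11, 0, 0 and 0 calls. At an unadjusted p under 0.05, members lower numbered 0 with spike-in scaling, 9 with the looser filter, 9 with the block and 11 in the reported edgeR fit. They numbered 14 with DESeq2's Wald test, 12 without control pool 1, and 7 without control pool 2 or control pool 3. Leaving out single libraries gave 71 to 347 calls higher, 19 to 409 lower, 0 members higher and 0 to 3 lower. The labels do not say what the pool numbers mark. Deviations from the condition means of pools with the same number correlated at r = 0.0549 for number 1 and -0.0822 for number 3. With 2 exposed pools the deviations of 1 mirror those of the other, so these values cannot decide whether pools with the same number are related. The members' median was -0.45 with spike-in scaling, where that of all genes was -0.23, and -0.19 with the block, and between -0.34 and -0.20 with a library left out. The summed level was 85.7% of control in CPM in place of TPM. *Wdr60* turned to -0.13 with spike-in scaling, and *Bbs10* lay between -0.70 and 0.34 with a library left out. In all, 14 of the 51 members, with fold changes near 0, had another sign under at least 1 of 13 alternatives. The causes of these shifts were not tested.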
